A study of Mus musculus with 4 samples.

Results

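The RNA levels of 38 genes of the cell cycle and of DNA replication were described in mouse liver with and without Drp1, the GTPase that divides mitochondria. The members were the genes whose symbol in the scanner files is on a list of replication and mitosis genes. That rule used no measured value, but the list was chosen with earlier results of these data known. The members were 38 of the 30439 genes or transcripts on the arrays, with 53 of 39392 usable probes. They were ordered by role into 4 genes of G1 and S phase entry, 9 of origin licensing, 6 of DNA synthesis and nucleotide supply, 7 of mitotic entry, 6 of the checkpoint, centromere and anaphase, and 6 of the spindle and chromosome structure.

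A cell that leaves the resting state makes cyclin D, which with its kinases releases E2F factors to switch on the genes for DNA replication. The licensing factors Cdc6 and Cdt1 load the ring-shaped MCM helicase at replication origins, nucleotide enzymes and the Pcna clamp then serve the copying of DNA, and a later group under Foxm1 and MuvB complexes, with Cdk1, cyclin B, the polo and aurora kinases and the kinesins, carries out mitosis. Hepatocytes of the adult liver are mostly at rest and enter the cycle again after loss of tissue or injury, and many of them are polyploid because they can copy their DNA without completing cell division.

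Liver RNA of male C57BL/6J mice on a high-fat diet (HFD), for 24 weeks per the labels, was measured with 1 array of 1 sample for each of 4 groups. Cont mice were Drp1 flox/flox littermates, labelled wild type, and Drp1LiKO mice, labelled knockout, carried Alb-Cre with Drp1 flox/flox. The paper calls this knockout liver-specific, and which cell types of the liver lost the gene was not measured on these arrays. In 1 pair of groups the livers were labelled refed, which the series text describes as 17 hours of fasting followed by 4 hours of refeeding, and the labels of the other pair name no feeding state. The paper speaks of fasted and refed livers, but groups were taken from the labels, so the other pair is called not refed here. Age at sampling, pooling of animals and the number of mice behind each array were not given for the arrays.

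Signals were the scanner's processed intensities, and each is given here as a multiple of the 75th percentile of its own array, which was 461 on the Cont array, 722 on Drp1LiKO, 357 on refed Cont and 526 on refed Drp1LiKO. Between 48.7% and 58.2% of gene spots on an array were well above background by the scanner's own test, and no spot was saturated. With 1 array per group there was no replicate check, the number of arrays limits the precision, and the errors given with differences are measurement SEs from the scanner's error model that leave out differences between animals. In RNA from whole liver, fewer cells of a type and less RNA per cell cannot be told apart. Dnm1l, which encodes Drp1, read 2.03 on Cont, 1.75 on Drp1LiKO, 1.58 on refed Cont and 1.46 on refed Drp1LiKO. Its differences between genotypes, -0.21 ± 0.20 without and -0.12 ± 0.20 with refeeding on the log2 scale, were about as small as their SE or smaller. The deleted exons are not given in the sources used here, so that probe does not check the genotype labels.

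Promoters are shown for 6 members, since E2F letters are known from replication genes and CHR letters from mitotic genes. Windows from 250 bases before to 50 bases after the annotated start were taken from RefSeq on the GRCm38.p6 build, where 30 of the 38 members had one, and only the 250 bases before the start are printed. Capitals mark the exact letters searched on both strands, TTTGGCGC and TTTCGCGC for E2F factors and TTTGAA and TTCGAA for the CHR element that MuvB complexes bind, and E2F matches on opposite strands can overlap each other. Mcm5 lies on the plus strand at chr8:75109259-75109508, Mcm6 on the minus strand at chr1:128359706-128359955, the downstream start of Uhrf1 on the plus strand at chr17:56304063-56304312, Cdk1 on the minus strand at chr10:69352913-69353162, Mki67 on the minus strand at chr7:135716380-135716629 and Cdc20 on the minus strand at chr4:118437344-118437593.
Mcm5: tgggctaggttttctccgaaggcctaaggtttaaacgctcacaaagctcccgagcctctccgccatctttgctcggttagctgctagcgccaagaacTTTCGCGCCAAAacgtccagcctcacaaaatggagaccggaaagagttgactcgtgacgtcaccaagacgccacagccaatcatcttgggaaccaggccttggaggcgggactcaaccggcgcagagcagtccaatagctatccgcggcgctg
Mcm6: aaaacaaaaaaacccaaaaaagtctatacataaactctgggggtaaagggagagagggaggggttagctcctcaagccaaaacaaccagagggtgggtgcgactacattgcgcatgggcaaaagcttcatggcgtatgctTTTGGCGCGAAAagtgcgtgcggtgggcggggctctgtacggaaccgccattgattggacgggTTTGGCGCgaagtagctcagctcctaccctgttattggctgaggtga
Uhrf1: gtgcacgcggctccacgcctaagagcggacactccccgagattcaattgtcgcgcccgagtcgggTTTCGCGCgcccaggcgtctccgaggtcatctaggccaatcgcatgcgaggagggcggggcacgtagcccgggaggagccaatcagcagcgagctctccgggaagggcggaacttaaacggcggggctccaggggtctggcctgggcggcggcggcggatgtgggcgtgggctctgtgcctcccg
Cdk1: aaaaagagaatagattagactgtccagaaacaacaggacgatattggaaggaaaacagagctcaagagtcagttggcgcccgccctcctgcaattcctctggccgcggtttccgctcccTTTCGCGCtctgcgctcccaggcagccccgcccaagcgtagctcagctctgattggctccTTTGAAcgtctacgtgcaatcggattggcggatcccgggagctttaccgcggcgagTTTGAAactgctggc
Mki67: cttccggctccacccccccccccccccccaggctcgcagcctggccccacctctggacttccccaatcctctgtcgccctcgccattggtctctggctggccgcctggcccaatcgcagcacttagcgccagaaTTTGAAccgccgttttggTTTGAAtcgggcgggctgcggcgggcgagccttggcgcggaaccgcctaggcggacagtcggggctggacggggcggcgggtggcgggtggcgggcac
Cdc20: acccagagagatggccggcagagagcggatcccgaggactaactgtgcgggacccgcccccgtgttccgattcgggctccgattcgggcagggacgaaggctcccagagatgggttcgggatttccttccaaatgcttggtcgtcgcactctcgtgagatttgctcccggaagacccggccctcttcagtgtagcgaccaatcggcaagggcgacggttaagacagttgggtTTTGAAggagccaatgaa

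The 4 members with E2F letters in these 250 bases were Mcm5, Mcm6, Uhrf1 and Cdk1, and all 4 are printed. In Mcm5 the 2 matches overlap and begin 153 and 149 bases before the start, and in Mcm6 there are 3. In Cdk1 E2F letters stand 131 bases and CHR letters 71 and 15 bases before the start. CHR letters were in 10 members within these 250 bases, 2 of them licensing genes. Only Cdk1, Mki67 and Cdc20 of those 10 are printed, so the printed promoters are a selection. Over the whole windows, E2F letters were in 7 of 30 members (23.3%) against 0.929% of all 27025 genes with a promoter, and 5 of the 7 licensing genes held them. CHR letters were in 14 of 30 members (46.7%) against 21.7% of all genes, with 4 of 5 genes in each of the 3 mitotic roles and 2 of 7 in licensing. CCAAT, the letters of the NF-Y box, was in 22 of 30 members (73.3%) against 41.1%, and matches of letters are a description and not proof of a bound site.

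Of the 38 members, 20 were well above background on all 4 arrays (52.6% against 47.5% of all genes), 12 on 1 to 3 arrays and 6 on none. Replication genes were measured more often than mitotic genes, with 8 of 9 licensing genes and 4 of 6 genes of DNA synthesis above background on every array. Of the 19 members with a mitotic role, 5 were measured on every array and 5 on none, namely the checkpoint kinases Bub1 and Bub1b, the aurora kinase Aurkb, the spindle motor Kif11 and the topoisomerase Top2a. The S phase cyclin Ccne2 was the other member below background throughout. The number of mitotic members well above background was 7 on Cont, 14 on Drp1LiKO, 6 on refed Cont and 10 on refed Drp1LiKO. Of all gene spots, 51.4%, 58.2%, 48.7% and 55.4% were well above background in the same order of arrays. The 75th percentile of the raw signals was also higher on both Drp1LiKO arrays, and its part in the number of mitotic members was not tested.

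**Figure D1:**
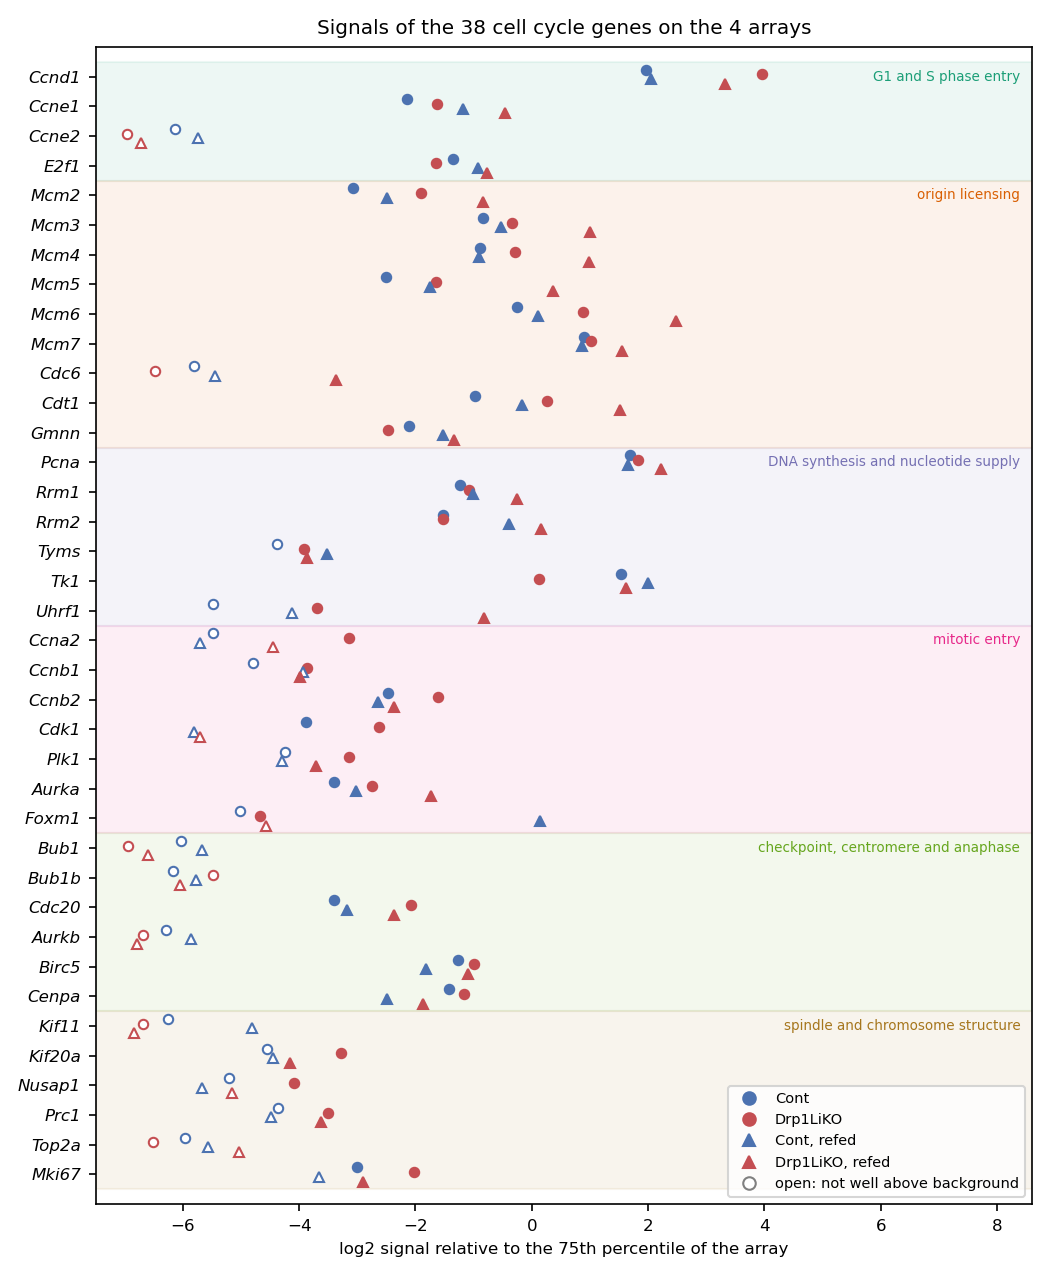
Signal of each of the 38 genes on the 4 arrays, on the horizontal axis as log2 of the signal relative to the array's 75th percentile, with 1 gene per row, circles for not refed, triangles for refed, blue for Cont and red for Drp1LiKO. Open symbols were not well above background, and rows come from different probes, so positions compare arrays within a row and not genes with each other. The red triangles of Mcm2 to Mcm6 lie to the right of the other 3 arrays in their rows.

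A gene was called at a difference of at least 2-fold. Where the probe was dim on 1 of the 2 arrays, the difference was a bound, in which the dim side was set to the detection floor of its array (the lowest signal that passed the scanner's test there) or to its own signal if that was higher. Without refeeding, 6 members were called higher in Drp1LiKO and 1 lower, against 4.53% and 5.04% of the 18040 genes that could be compared, and 22 members were measured on both arrays, 9 on 1 of them and 7 on neither. After refeeding, 9 members were called higher and 1 lower, against 4.03% and 6.33% of 17446 genes, with 21 members measured on both arrays, 8 on 1 and 9 on neither. Called higher in both feeding groups were 4 members, Ccnd1, Mcm2, Mcm6 and Cdt1, against 1.62% of 16523 genes, and no member was called lower in both, against 1.4%. Over the 28 members whose mean signal reached the mean of the 4 detection floors, the median genotype difference was 0.62 without and 0.72 after refeeding on the log2 scale, where all 16460 such genes had medians of -0.10 and -0.06.

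**Figure D2:**
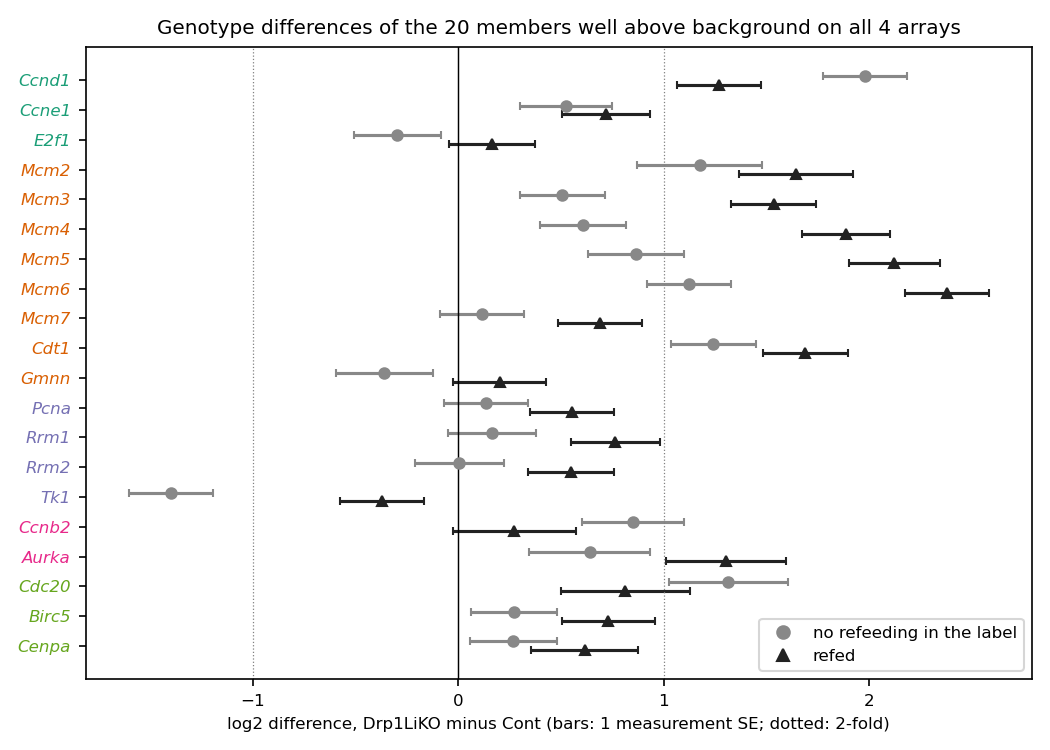
Genotype differences, Drp1LiKO minus Cont on the log2 scale, of the 20 members measured on every array, without refeeding as grey circles and after refeeding as black triangles, with bars of 1 measurement SE, dotted lines at 2-fold and gene names coloured by role. After refeeding 19 of the 20 lie above 0, with Tk1 at -0.37 the exception, and Mcm6 at 2.38 is the farthest to the right.

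Cyclin D1, the G1 cyclin that responds to growth signals, had the largest genotype difference of the entry genes in both feeding groups. Ccnd1, whose probe lies at chr7:152116202-152116261 of the mm9 build, read 3.92 on Cont, 15.5 on Drp1LiKO, 4.14 on refed Cont and 9.98 on refed Drp1LiKO. Both Drp1LiKO arrays lay above both Cont arrays, by 3.95-fold without refeeding (1.98 ± 0.20 on the log2 scale) and 2.41-fold after it (1.27 ± 0.20). Ccne1, the cyclin that activates Cdk2 at the start of S phase, read 0.226, 0.325, 0.439 and 0.723 in the same order of arrays. Its genotype differences of 0.52 ± 0.22 and 0.72 ± 0.21 were below 2-fold, and its refeeding differences were 0.96 ± 0.23 in Cont and 1.15 ± 0.21 in Drp1LiKO. E2f1, an activator of the replication genes, read 0.393, 0.320, 0.525 and 0.589, with genotype differences of -0.30 ± 0.21 and 0.16 ± 0.21 that had opposite signs and lay within 1.5-fold.

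Of the 9 genes of origin licensing, 3 were called higher in Drp1LiKO without refeeding and 6 after it, and none lower. Mcm6, a subunit of the MCM helicase whose probe lies at chr1:130228178-130228237 of mm9, read 0.843 on Cont, 1.83 on Drp1LiKO, 1.07 on refed Cont and 5.57 on refed Drp1LiKO. The refed Drp1LiKO array stood 5.19-fold above refed Cont (2.38 ± 0.21) and the not refed pair differed 2.18-fold (1.12 ± 0.21). Mcm5, another subunit, read 0.176, 0.321, 0.297 and 1.29, a difference of 1.82-fold (0.86 ± 0.23) without and 4.35-fold (2.12 ± 0.22) after refeeding.

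The other subunits of the helicase followed the same order of arrays at the top, with refed Drp1LiKO the highest in each. Mcm2 read 0.118, 0.266, 0.179 and 0.559, and was called in both feeding groups at 2.26-fold and 3.12-fold. Mcm3 read 0.557, 0.791, 0.692 and 2.004, and Mcm4 read 0.537, 0.817, 0.531 and 1.97. These 2 were below 2-fold without refeeding (0.51 ± 0.21 and 0.61 ± 0.21) and above it afterwards (1.53 ± 0.21 and 1.89 ± 0.21). The second Mcm3 probe, also measured on every array, kept the same order at 0.384, 0.535, 0.471 and 1.38. Mcm7 read 1.86, 2.01, 1.82 and 2.93, with genotype differences of 0.11 ± 0.20 and 0.69 ± 0.21 that reached 2-fold in neither feeding group, so the 6 subunits did not differ by the same amount.

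The loading factors and their inhibitor differed from each other. Cdt1, which brings the helicase to origins, read 0.506, 1.20, 0.885 and 2.85, and was called in both feeding groups at 2.36-fold (1.24 ± 0.21) and 3.22-fold (1.69 ± 0.21). Gmnn, which encodes geminin, the inhibitor of Cdt1, read 0.232, 0.181, 0.345 and 0.397, and its genotype differences of -0.36 ± 0.24 and 0.20 ± 0.23 had opposite signs. Cdc6, the ATPase that loads the helicase with Cdt1, was well above background on the refed Drp1LiKO array only, where it read 0.0972. That was at least 1.14-fold above refed Cont and at least 2.64-fold above Drp1LiKO without refeeding, and the second Cdc6 probe was below background on every array.

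Among the genes of DNA synthesis, 1 was called in each genotype comparison, in opposite directions. Tk1, the cytosolic thymidine kinase that salvages thymidine, read 2.88 on Cont, 1.09 on Drp1LiKO, 3.98 on refed Cont and 3.07 on refed Drp1LiKO. It was 2.64-fold lower in Drp1LiKO without refeeding (-1.40 ± 0.20) and differed by -0.37 ± 0.20 after it, while another Tk1 probe measured on all arrays gave -0.84 and -0.51 and a further probe was below background. Uhrf1, which brings DNA methylation to newly copied strands, read 0.0224, 0.0776, 0.0573 and 0.567, where both Cont arrays were below background. Its refed Drp1LiKO signal was at least 6.63-fold above refed Cont and 7.30-fold above Drp1LiKO without refeeding, and its second probe was below background throughout.

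The remaining genes of DNA synthesis stayed below 2-fold between genotypes. Pcna, the sliding clamp of the DNA polymerases, read 3.24, 3.56, 3.16 and 4.64, with differences of 0.13 ± 0.20 and 0.55 ± 0.20. Rrm1 and Rrm2, the subunits of ribonucleotide reductase, differed by 0.16 ± 0.21 and 0.00 ± 0.22 without refeeding and by 0.76 ± 0.22 and 0.55 ± 0.21 after it. Tyms, the thymidylate synthase, was dim on Cont and read 0.0660 on Drp1LiKO, 0.0876 on refed Cont and 0.0688 on refed Drp1LiKO, a refed difference of -0.35 ± 0.40.

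Mitotic members were higher in Drp1LiKO wherever both arrays measured them, in 7 of 7 without and 5 of 5 after refeeding. Few of these differences reached 2-fold. Of all genes measured on both arrays, 6057 of 15469 were higher without and 6155 of 14672 after refeeding. The refed signs of Ccnb2 and Birc5 turned under an alternative setting, at -0.08 and -0.06. Foxm1, called lower after refeeding by its bound, is outside these counts because it was dim on refed Drp1LiKO. Cdc20, the activator of the anaphase-promoting complex, read 0.0951 on Cont, 0.237 on Drp1LiKO, 0.111 on refed Cont and 0.194 on refed Drp1LiKO, and was called at 2.49-fold without refeeding (1.31 ± 0.29) and not after it (0.81 ± 0.31). Aurka, the aurora kinase of the spindle poles, read 0.0952, 0.148, 0.123 and 0.303, and was called after refeeding at 2.47-fold (1.30 ± 0.29) and not without it (0.64 ± 0.29). Ccnb2, a cyclin partner of Cdk1, read 0.181, 0.327, 0.160 and 0.194, below 2-fold in both pairs (0.85 ± 0.25 and 0.27 ± 0.30). Mki67, which encodes the proliferation marker Ki-67, read 0.124, 0.247, 0.0795 and 0.134, a difference of 0.99 ± 0.26 without refeeding and of at least 1.57-fold after it, where refed Cont was below background. Its second probe gave 0.37 without refeeding.

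Probes for Cdk1, the kinase that starts mitosis, disagreed. The probe used, at chr10:68799513-68799572 of mm9, read 0.0680 on Cont and 0.162 on Drp1LiKO (1.25 ± 0.36, called higher) and was below background on both refed arrays. The second probe was well above background on the refed Cont array only, at 0.239, and the other one on both Drp1LiKO arrays only, at 0.0406 and 0.0836. A direction for Cdk1 therefore depends on the probe.

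Foxm1, the factor that drives mitotic genes, was high on the refed Cont array alone. Its probe at chr6:128324783-128324842 of mm9 read 0.0309 on Cont, 0.0392 on Drp1LiKO, 1.11 on refed Cont and 0.0423 on refed Drp1LiKO. The refed difference was called at least 25.8-fold lower in Drp1LiKO, and in Cont the refed array was at least 18.7-fold above the not refed array. The second Foxm1 probe was below background on all 4 arrays, and the second Cdk1 probe was likewise well above background on the refed Cont array only.

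Several other mitotic genes were below background on both Cont arrays. Ccna2, the cyclin of S phase and early mitosis, was well above background on the Drp1LiKO array only, where it read 0.114, at least 1.92-fold above Cont. Plk1, the polo kinase, Kif20a, a kinesin of the central spindle, and Prc1, which bundles microtubules there, were well above background on both Drp1LiKO arrays and on no Cont array, and their bounds without refeeding were 1.90-fold, 1.74-fold and 1.49-fold. After refeeding the bound of each was 0 on the log2 scale, so no difference could be given for the refed pair. Ccnb1 and Nusap1, a cyclin and a microtubule-binding protein, were measured in Drp1LiKO with bounds of at most 1.16-fold without refeeding. Birc5, which encodes survivin, and Cenpa, the histone H3 variant of centromeres, were measured on all arrays and differed by 0.27 ± 0.21 each without refeeding, and by 0.73 ± 0.23 and 0.61 ± 0.26 after it. Of the other Birc5 probes, 1 was well above background on the Drp1LiKO array without refeeding alone and the other on no array.

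The next comparison set the refed liver of each genotype against the not refed liver. In Cont, 2 members were called higher in the refed liver and 1 lower, against 3.69% of 16437 genes in each direction, with 20 members measured on both arrays, 4 on 1 and 14 on neither. Called were Rrm2 (2.20-fold higher, 1.14 ± 0.22), Foxm1 and Cenpa (2.08-fold lower, -1.05 ± 0.26). The call of Cenpa was lost under 3 alternative settings, at -0.50 to -0.99, and that of Rrm2 under 1, at 0.91. In Drp1LiKO, 13 members were called higher and 2 lower, against 4.51% and 4.74% of 18329 genes, with 27 members measured on both arrays, 5 on 1 and 6 on neither. The member medians were 0.33 in Cont and 0.69 in Drp1LiKO, and those of all genes 0.10 and 0.09.

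Within Drp1LiKO, the called replication genes were all higher in the refed liver, while most mitotic members measured on both arrays were lower by less than 2-fold. All 8 licensing genes measured on both arrays were higher in the refed liver, and 8 of 9 licensing genes were called. They were Mcm5 (4.02-fold), Mcm6 (3.04-fold), Mcm3 (2.53-fold), Mcm4 (2.40-fold), Cdt1 (2.38-fold), Gmnn (2.19-fold), Mcm2 (2.10-fold) and Cdc6 by its bound, while Mcm7 was 1.45-fold higher. All 6 genes of DNA synthesis were above 0, with Uhrf1, Rrm2 (3.21-fold) and Tk1 (2.81-fold) called, and Ccne1 was called at 2.23-fold. Of the 10 mitotic members measured on both Drp1LiKO arrays, 9 were lower in the refed liver and Aurka was higher, at 2.04-fold (1.03 ± 0.22), where 6900 of all 16320 genes measured on both arrays were lower. The values of Ccnb1 (-0.12), Prc1 (-0.12) and Birc5 (-0.09) lay within their SE, and those of Ccnb1 and Prc1 changed sign under an alternative setting. Of these 9, none reached 2-fold, with Kif20a at -0.89 ± 0.35, Mki67 at -0.88 ± 0.23, Ccnb2 at -0.75 ± 0.23 and Cenpa at -0.71 ± 0.21 the farthest from 0. In the longer list of 57 other mitotic spindle and cytokinesis genes, 21 of the 30 measured on both arrays were higher in refed Drp1LiKO, with 6 called higher, 3 lower and a median of 0.32. Ccna2 and the Cdk1 probe used were below background on refed Drp1LiKO and called lower by their bounds, at least 2.49-fold and 3.77-fold, but the other Cdk1 probe measured in Drp1LiKO was higher after refeeding. Ccnd1 was lower in refed Drp1LiKO by -0.63 ± 0.20 and at 0.08 ± 0.20 in Cont.

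**Figure D3:**
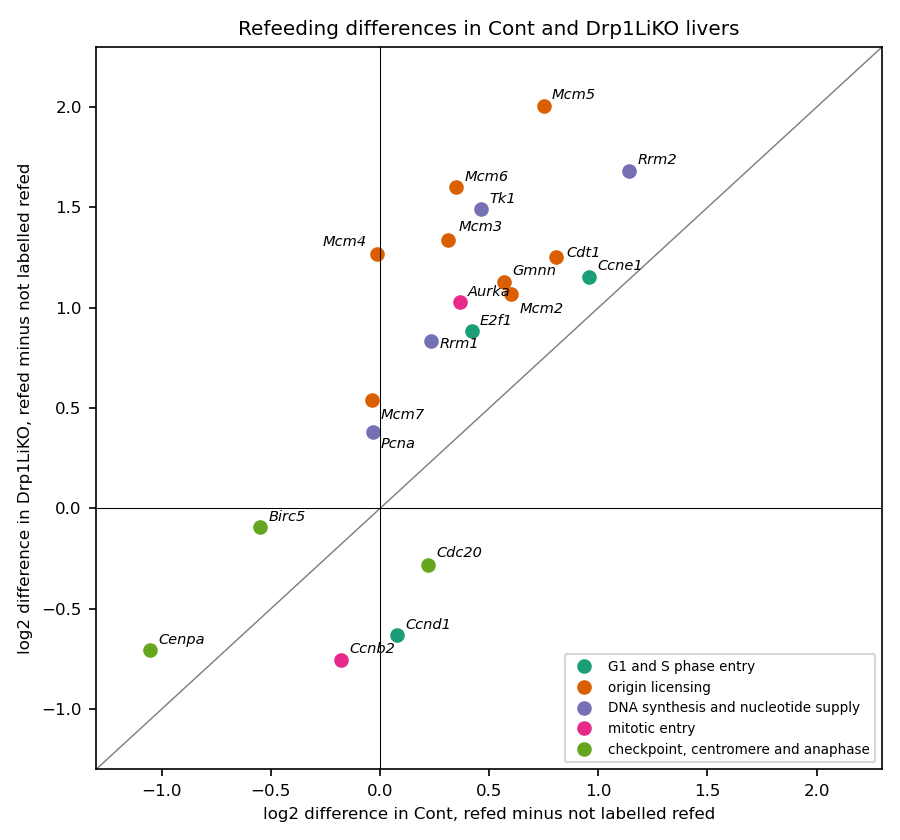
Refeeding differences, refed minus not refed on the log2 scale, in Cont on the horizontal and in Drp1LiKO on the vertical axis, for the 20 members measured on every array, coloured by role, with the grey line where both are equal. Licensing genes lie above the line with Mcm5 at 2.01 in Drp1LiKO, and Cenpa, Birc5 and Ccnb2 are below 0 on both axes.

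Whether the genotype difference was larger after refeeding was asked for the 20 members on all 4 arrays, as the refed difference minus the difference without refeeding, which leaves 4 arrays no residual degrees of freedom and so has no test. It was above 0 for 17 of 20 members and for 8 of 8 licensing genes, with a median of 0.51 against 0.04 over all 14447 such genes. It reached at least 1 in 5 members, against 1.87% of all genes, and none was at -1 or below, against 2.38%. The 5 were Mcm4 (1.28 ± 0.30), Mcm5 (1.26 ± 0.32), Mcm6 (1.26 ± 0.29), Mcm3 (1.03 ± 0.29) and Tk1 (1.03 ± 0.29), and under the alternative settings the lowest values were 0.33 for Tk1 and 0.91 for Mcm3, while Mcm4, Mcm5 and Mcm6 kept at least 1.08. Birc5, at 0.46, was at -1.23 when its probes were combined by their median. The 3 members below 0 were Ccnd1 (-0.71 ± 0.29), Ccnb2 and Cdc20.

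An additive model over the 4 arrays, fitted with limma to all 16460 genes that reached that mean floor, gave the only test. Its terms were genotype and refeeding, with 1 residual degree of freedom. In that residual, a change of the genotype difference with refeeding counts as error. Its SE and p therefore do not measure a spread between replicate animals. No member passed a Benjamini-Hochberg adjusted p of 0.05 for genotype, where 0.0486% of all genes passed higher and 0.0182% lower, and the lowest adjusted p of a member was 0.102. It was that of Cdt1 (1.47, SE 0.18), Mcm2 (1.41, SE 0.18) and Ccnd1 (1.63, SE 0.23), each higher in 2 of 2 pairs. At an unadjusted p under 0.05, 14 of 28 members were higher and 1 lower in Drp1LiKO, against 11.0% and 17.6% of all genes. Dim signals entered this fit at their own value. Among the 14 were Prc1, Uhrf1 and Plk1, below background on both Cont arrays, and Mki67, below it on refed Cont. For refeeding no member and no gene passed the adjusted threshold, the lowest adjusted p was 0.159, and 10 members were higher and 2 lower at an unadjusted p under 0.05, against 16.5% and 10.8%. When only the 14447 genes measured on every array entered it, the same fit called 1214 genes and 5 of 20 members for genotype, Cdt1, Mcm2, Ccnd1, Cdc20 and Mcm6, all higher, at limma adjusted p of 0.0333 to 0.0441.

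The rest of the pathway was described from 5 further lists, beside 4.53% of all genes called higher and 5.04% lower without refeeding, and 4.03% and 6.33% after it. Of 46 genes of the replication fork and origins, 1 was called higher and 1 lower without refeeding, and 7 higher and 2 lower after it, with medians of 0.12 and 0.38. Of 57 genes of the mitotic spindle and cytokinesis, 2 were called higher and 0 lower without refeeding, and 5 higher and 4 lower after it. The medians of that list were 0.29 and 0.39. DNA repair genes gave 0 of 25 called without refeeding, and 2 higher and 1 lower after it. Mcm10, which joins the helicase to the polymerases, was lower in both feeding groups, at 27.7 on Cont, 13.6 on Drp1LiKO, 28.2 on refed Cont and 5.73 on refed Drp1LiKO (-1.03 and -2.30), the opposite direction to Mcm2 and Mcm6.

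Of 23 CDK inhibitors and brakes, genes that hold the cycle back, 6 were called higher in Drp1LiKO without refeeding and 4 after it, and 0 lower, beside the same shares of all genes. Of those measured on both arrays, 16 of 20 were above 0 without refeeding and 10 of 19 after it, and the refed median of 0.25 turned to -0.16 with the median over probes. Cdkn1a, which encodes the p53 target p21, read 0.474 on Cont, 3.78 on Drp1LiKO, 0.192 on refed Cont and 0.707 on refed Drp1LiKO, 7.98-fold and 3.69-fold apart between genotypes, while its other probes were well above background on the Drp1LiKO array without refeeding only. Btg2, an antiproliferative p53 target, read 0.279, 0.961, 0.213 and 0.486 (1.78 and 1.19), and Cdkn2c, which encodes p18 and inhibits the kinases of cyclin D, read 0.140, 0.352, 0.120 and 0.304 (1.33 and 1.34). Among 22 G1 cyclins, CDKs and E2F factors, 2 were called higher and 1 lower without refeeding, and 1 higher after it. Myc, a growth factor-induced transcription factor, read 0.239, 0.739, 0.0855 and 0.517 and was called in both feeding groups (1.63 and 2.60).

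**Figure D4:**
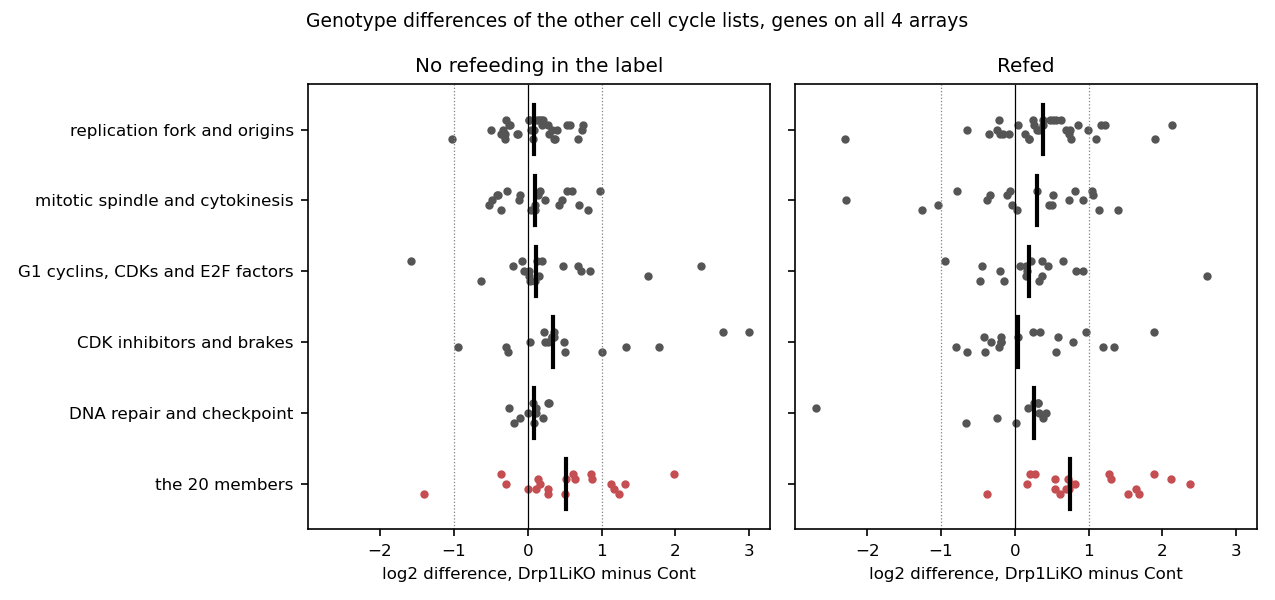
Genotype differences, Drp1LiKO minus Cont on the log2 scale, without refeeding on the left and after refeeding on the right, for the genes of 5 further cell cycle lists (grey) and the 20 members (red) that were well above background on all 4 arrays, with black bars at the medians and dotted lines at 2-fold. Cdkn1a is the CDK inhibitor farthest to the right without refeeding, at 7.98-fold, and the replication fork list reaches down to -2.30 after refeeding, where Mcm10 lies.

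Markers of the cell types that a liver sample holds were set beside the members. All 12 hepatocyte markers were well above background on every array, and their summed level was 5185 and 6233 on the Cont arrays and 3483 and 4148 on the Drp1LiKO arrays, not refed and refed. Not all of them were lower in Drp1LiKO, since 3 of the 12 were above 0 without refeeding and 2 after it. In each feeding group 1 hepatocyte marker was called higher and 0 lower. For 15 macrophage markers the sums were 121 and 132 in Cont and 136 and 221 in Drp1LiKO, with Lyz2, Marco and Cd14 called higher in both feeding groups and Vsig4 after refeeding, and 0 called lower. Cd5l, which was not called, gave 34.8 and 38.6 of the Cont sums and 41.5 and 68.3 of the Drp1LiKO sums. Marco gave 5.33 and 13.5 against 16.7 and 41.2. Of the 15, 11 were above 0 without refeeding and 14 after it, and Itgam was lower in both, at 6.55 and 3.94 in Cont and 3.55 and 2.49 in Drp1LiKO. T and NK cell markers summed to 24.0 and 25.2 in Cont and 20.3 and 19.1 in Drp1LiKO. Of these sums Cd4 alone gave 18.5 and 18.5 in Cont and 15.4 and 13.4 in Drp1LiKO. Of the 8 T and NK cell markers that reached the mean floor, 5 were above 0 without refeeding and 4 after it. Called higher were 2 of the 10 without refeeding, both by their bounds, and 1 after it, and 0 were called lower. The 6 B cell markers, of which 3 or 4 were well above background, summed to between 0.763 and 1.85. Stellate cell markers summed to 46.2 and 52.1 against 66.3 and 59.4, and endothelial markers to 55.1 and 58.1 against 46.4 and 39.4. Cholangiocyte markers summed to 0.597 and 0.617 against 1.13 and 1.06, and neutrophil markers to 94.2 and 57.4 against 67.6 and 60.3. Of the stellate sums Dcn gave 44.6 and 49.8 against 63.0 and 57.2. Of the neutrophil sums Csf3r gave 88.4 and 50.4 against 63.8 and 49.3. Without refeeding 2 stellate, 1 endothelial and 2 cholangiocyte markers were called higher, and 2 neutrophil and 1 cholangiocyte markers lower. After refeeding 1 neutrophil and 1 cholangiocyte marker were called higher, and 0 markers of these lists lower. The erythroid markers summed to 175 and 207 in Cont and 98.3 and 198 in Drp1LiKO. The 38 members themselves, dim probes included, summed to 18.0 and 21.9 in Cont and 31.9 and 41.3 in Drp1LiKO. Of these sums Ccnd1 alone gave 3.92 and 4.14 in Cont and 15.5 and 9.98 in Drp1LiKO. The part of the cell types above in the members' differences was not tested.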

How the data were processed

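Liver RNA was measured on 4 one-colour Agilent 4x44K v2 arrays on 1 slide, read in 1 scan, with 44397 spots and 39429 gene probes each. The methods of the paper name a different Agilent array format. The intensity values were the processed signals deposited by the authors, linear and background-subtracted within each array per the file headers, which name Feature Extraction 10.7.1.1, while the processing notes name 9.5.1.1. The authors' deposited matrix of normalized intensities has the same quartiles on each array. Its values, taken to log2 here, served as an alternative.

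Here, outlier spots were removed (39392 probes left), repeated spots averaged, and log2 signals set relative to the array's 75th percentile of gene spots. Gene names were updated by accession to GRCm38.p6 for 26733 probes. A gene was represented by the probe well above background on most arrays, then by the highest mean signal. Analyses used Python 3.11.15, R 4.3.3 and limma 3.58.1, and the limma step was tested on simulated data. All members were accounted for, with values on every array for at least those called in a genotype comparison or whose probes disagree. Other lists were named by the genes called in both feeding groups and measured on all arrays, and the macrophage markers by their called genes. Itgam, Cd5l, Cd4, Csf3r and Dcn were named after their values were seen. Members and lists were chosen with earlier results of these data known. Other scalings, normexp background with an offset of 50, probe rules, filters and thresholds were tried.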

Additional observations from a re-analysis of the deposited data

Results flagged for a closer look

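Some members measured on all 4 arrays differed in opposite directions in the 2 feeding groups or the 2 genotypes. With 1 array per group the difference between these effects was not tested, and several single effects lay within their measurement SE of 0. The genotype difference of E2f1 was -0.30 without and 0.16 after refeeding, 0.46 apart, and that of Gmnn -0.36 and 0.20, 0.56 apart. The refeeding difference of Mcm4 was -0.01 in Cont, where the sign changed under 3 alternative settings, and 1.27 in Drp1LiKO, 1.28 apart. That of Mcm7 was -0.04 and 0.54, 0.57 apart, and that of Pcna -0.03 and 0.38, 0.42 apart. Ccnd1 was at 0.08 in Cont and -0.63 in Drp1LiKO, a change of -0.71, and Cdc20 at 0.22 and -0.28, a change of -0.50.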

How the results depend on the processing

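No paired analysis was possible because each group has 1 array and so no replicate number to pair by, apart from the additive model, which sets each genotype pair within its feeding group. No array was left out for the same reason. With normexp background, the called members were 4 without refeeding, 1 for refeeding in Cont and 8 for refeeding in Drp1LiKO, where the reported counts are 7, 3 and 15. Of all genes, 872, 632 and 835 were called with normexp, where the reported settings called 1727, 1212 and 1695. The genotype medians with normexp were 0.17 without and 0.43 after refeeding, where 0.62 and 0.72 are reported. With a 1.5-fold threshold, 15 members were called without and 17 after refeeding, and 7 for refeeding in Cont, beside 4320, 4431 and 3149 of all genes. With a dim probe read at its own signal, 12 members were called without refeeding, beside 2390 of all genes. The median refeeding difference in Drp1LiKO was 0.29 with no filter on the mean and 1.05 over genes on all 4 arrays. For genotype, limma called 5 members over genes on all 4 arrays, 2 with normexp (Ccnd1 and Cdt1) and 3 with an intensity trend (Ccnd1, Cdt1 and Mcm2), out of 1214, 523 and 496 genes. The refed median of the CDK inhibitors turned from 0.25 to -0.16 with the median over probes. With normexp, Mcm2 (0.43), Cdc20 (0.55) and Cdk1 (0.31) were below 2-fold without refeeding and Mcm2 (0.995) and Aurka (0.51) after it, and with the median over probes Tk1 was at -0.84 without refeeding. The cause was not tested. For refeeding in Cont the calls of Cenpa (-0.99 with quantile normalization and with the authors' values, -0.50 with normexp) and Rrm2 (0.91 with normexp) were lost, and for refeeding in Drp1LiKO those of Ccne1, Mcm2, Gmnn and Aurka, at 0.80 to 0.93. Signs changed under at least 1 alternative for the refed genotype differences of Birc5 and Ccnb2, for Ccne1 and Rrm2 without refeeding, for the refeeding differences of Mcm4, Ccnb2 and Birc5 in Cont and of Ccnb1 and Prc1 in Drp1LiKO. Scaling to the array median moved the genes called for refeeding in Drp1LiKO from 827 higher and 868 lower to 1065 and 738. Dim signals limit the mitotic genes most, since 14 of the 19 were below background on at least 1 array.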
